A study of Mus musculus with 98 samples.

Results

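Fbxo32, Trim63, Pdk4, Ucp3, Angptl4, Foxo1, Foxo3, Klf15 and Cpt1b are genes whose transcripts in skeletal muscle are known to respond to fasting or to accompany muscle wasting. They were taken by symbol from the mouse rows of the deposited count table that holds muscle and 2 hypothalamic regions, the suprachiasmatic nucleus (SCN), seat of the central clock, and the arcuate nucleus (ARC), which senses nutrient state. All 9 were found among its 20415 mouse genes, and all 9 were also found among the 19689 mouse rows of the separate liver table. Muscle is described first, and liver and the brain regions serve as comparison.

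The series holds 98 RNA sequencing libraries from FRGN mice, which lack Fah, Rag2 and Il2rg and were bred onto a non-obese diabetic background. Both arms carry these deletions, and hepatocytes without Fah die unless the drug nitisinone is given, so that transplanted hepatocytes can take over the liver. In the Hu arm the transplanted hepatocytes were human, and animals were kept only if repopulation was above 70 percent. In the Mu arm, the control, they were murine. The animals were males of 10 weeks on a high-energy diet, with cycles of nitisinone, antibiotics and dextrose in the drinking water. Tissue was taken at zeitgeber times (ZT) 2, 6, 10, 14, 18 and 22, where by convention ZT counts hours from lights on. Muscle gave 15 Hu libraries, with 2 or 3 per time point, and 12 Mu libraries, with 2 per time point. Liver had the same numbers, and ARC and SCN each had 10 Hu and 12 Mu libraries. In both brain regions Hu had only 1 library at ZT 6 and 1 at ZT 22. The labels do not say which muscle was taken, and they do not describe feeding at the time of collection. They do not tie replicates to separate animals either, so the p-values measure the spread between these libraries.

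During fasting, muscle shifts from glucose to fatty acids and releases amino acids from its proteins. Insulin keeps the FOXO transcription factors Foxo1 and Foxo3 out of the nucleus, and when insulin falls they enter it and raise genes of protein breakdown. Among these are the ubiquitin ligases Fbxo32 (atrogin-1) and Trim63 (MuRF1), which mark muscle proteins for the proteasome. Klf15 is a transcription factor induced by glucocorticoids that promotes amino acid breakdown. Pdk4 inhibits pyruvate dehydrogenase and thereby spares glucose. Cpt1b carries out the first step of fatty acid entry into muscle mitochondria, Ucp3 is a mitochondrial carrier raised by fatty acids, and Angptl4 is a secreted inhibitor of lipoprotein lipase that fat cells and liver also make.

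RefSeq promoter sequences (GRCm38.p6) were at hand for 6 of the 9 genes. They are not shown for the other 3, Fbxo32, Angptl4 and Cpt1b. Windows from 250 bases before to 50 bases after each start site were searched on both strands for 5 motifs. These were the FOXO motif GTAAACA, the glucocorticoid receptor motif TGTTCT, the E-box CACGTG, the D-box TTATGTAA and the nuclear receptor motif AGGTCA. Of all 32851 promoters in the table, 3.65% held the FOXO motif, 19% TGTTCT, 7.15% the E-box, 0.938% the D-box and 16.3% AGGTCA. Trim63, Klf15 and Ucp3 are printed because their windows held a motif, with its letters in capitals, as the 250 bases before the start site.
Trim63 (chr4:134314870-134315119, plus strand): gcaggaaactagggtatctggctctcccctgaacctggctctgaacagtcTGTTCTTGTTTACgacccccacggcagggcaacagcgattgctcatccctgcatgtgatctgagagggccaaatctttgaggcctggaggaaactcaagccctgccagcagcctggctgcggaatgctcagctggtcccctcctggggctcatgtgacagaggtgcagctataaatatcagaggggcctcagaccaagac
Klf15 (chr6:90462326-90462575, plus strand): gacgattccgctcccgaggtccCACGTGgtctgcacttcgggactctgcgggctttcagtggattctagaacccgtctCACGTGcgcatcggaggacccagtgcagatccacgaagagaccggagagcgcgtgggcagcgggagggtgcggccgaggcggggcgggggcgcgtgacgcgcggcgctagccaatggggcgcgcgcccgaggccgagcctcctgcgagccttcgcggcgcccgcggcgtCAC
Ucp3 (chr7:100472741-100472990, plus strand): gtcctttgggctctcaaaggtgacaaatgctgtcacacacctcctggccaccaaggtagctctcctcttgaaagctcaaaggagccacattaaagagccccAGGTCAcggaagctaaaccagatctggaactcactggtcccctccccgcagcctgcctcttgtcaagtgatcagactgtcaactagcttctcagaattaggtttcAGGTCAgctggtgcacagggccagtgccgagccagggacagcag
In Trim63, TGTTCT began at position -200 and was followed directly by a FOXO motif on the opposite strand at position -194, so the capitals form 1 block. Klf15 had E-boxes at -228 and -172, and the third began at -3 and runs past the printed bases. Ucp3 had AGGTCA at -149 and -44. The windows of Pdk4, Foxo1 and Foxo3 held none of the 5 motifs. A match describes letters and is not evidence of binding.

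Muscle libraries held 43102074 to 92054635 counts. Of the 27 libraries, Hu replicate 2 at ZT 14 held the highest value of 5 of the 9 genes (Fbxo32, Trim63, Foxo1, Foxo3 and Klf15), and the level results it moves most are given with and without it. It also had the lowest sum of skeletal muscle markers of all 27 libraries (46414 CPM, in counts-per-million with library totals scaled by TMM factors), the second highest sum of fat cell markers (2701 CPM), and, over all genes, the second lowest correlation with the mean of the other Hu libraries (r = 0.969). The part of these in the values of that library was not tested. Over all genes, Hu replicate 1 at ZT 6 was the least like the other Hu libraries (r = 0.933 with their mean, across genes), and Mu replicate 2 at ZT 2 the least like the other Mu libraries (r = 0.967). The defining transcripts of skeletal muscle were abundant in both arms, with 5 markers summing to 54170 to 80213 CPM in Mu and 46414 to 92713 CPM in Hu. Fat cell transcripts differed between the arms. The 8 fat markers summed to 141 to 2368 CPM in Mu (median 319) and to 251 to 3037 CPM in Hu (median 1003), and 6 of the 8 were higher in Hu, among them the adipokine genes Adipoq (log2 difference 2.28 ± 0.55 SE) and Cfd (3.04 ± 0.53). No fat marker was at 0 throughout an arm. Slow fibre markers summed to 138 to 2372 CPM in Mu and 80.6 to 855 CPM in Hu, and 2 of 7 were lower in Hu, Myl2 and Tnnt1. Of 6 fast fibre markers, 2 were higher and 1 lower. Of 3 markers each, all 3 leukocyte markers were higher in Hu muscle, while 2 of 3 endothelial and 2 of 3 fibroblast markers were lower, and the part of these in the results was not tested. Beside these marker counts, 13.5 percent of all genes were higher and 13.3 percent lower, 26.9 percent in all. The share of slow fibre markers called was thus near that of all genes. A fit that held the mean log2 levels of fat and slow fibre markers as covariates is given beside the results below. Fat markers themselves differed between the arms, so that fit cannot tell their part from that of the arm. A call lost in it does not show that these markers account for the difference. In bulk tissue, fewer cells of a type and less RNA per cell cannot be told apart.

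Levels differed widely among the 9 genes. Per kilobase of exon, the Mu medians ran from 142 CPM for Pdk4 and 109 CPM for Cpt1b, through 54.3 for Trim63, 47.4 for Ucp3 and 45.8 for Fbxo32, to 10.9 for Klf15, 3.82 for Foxo3, 3.29 for Foxo1 and 1.40 for Angptl4. Hu medians ran in nearly the same order, with 132 CPM per kilobase for Pdk4, 86.2 for Cpt1b, 70.9 for Trim63, 53.1 for Fbxo32, 33.9 for Ucp3, 14.3 for Klf15, 4.59 for Foxo3, 3.74 for Foxo1 and 2.85 for Angptl4. Ucp3 and Fbxo32 changed places between the arms, and their ranges overlapped within each arm. In both arms the enzymes, the ligases and Ucp3 stood above the transcription factors, and Angptl4 was the lowest of the 9 in both arms.

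**Figure D1:**
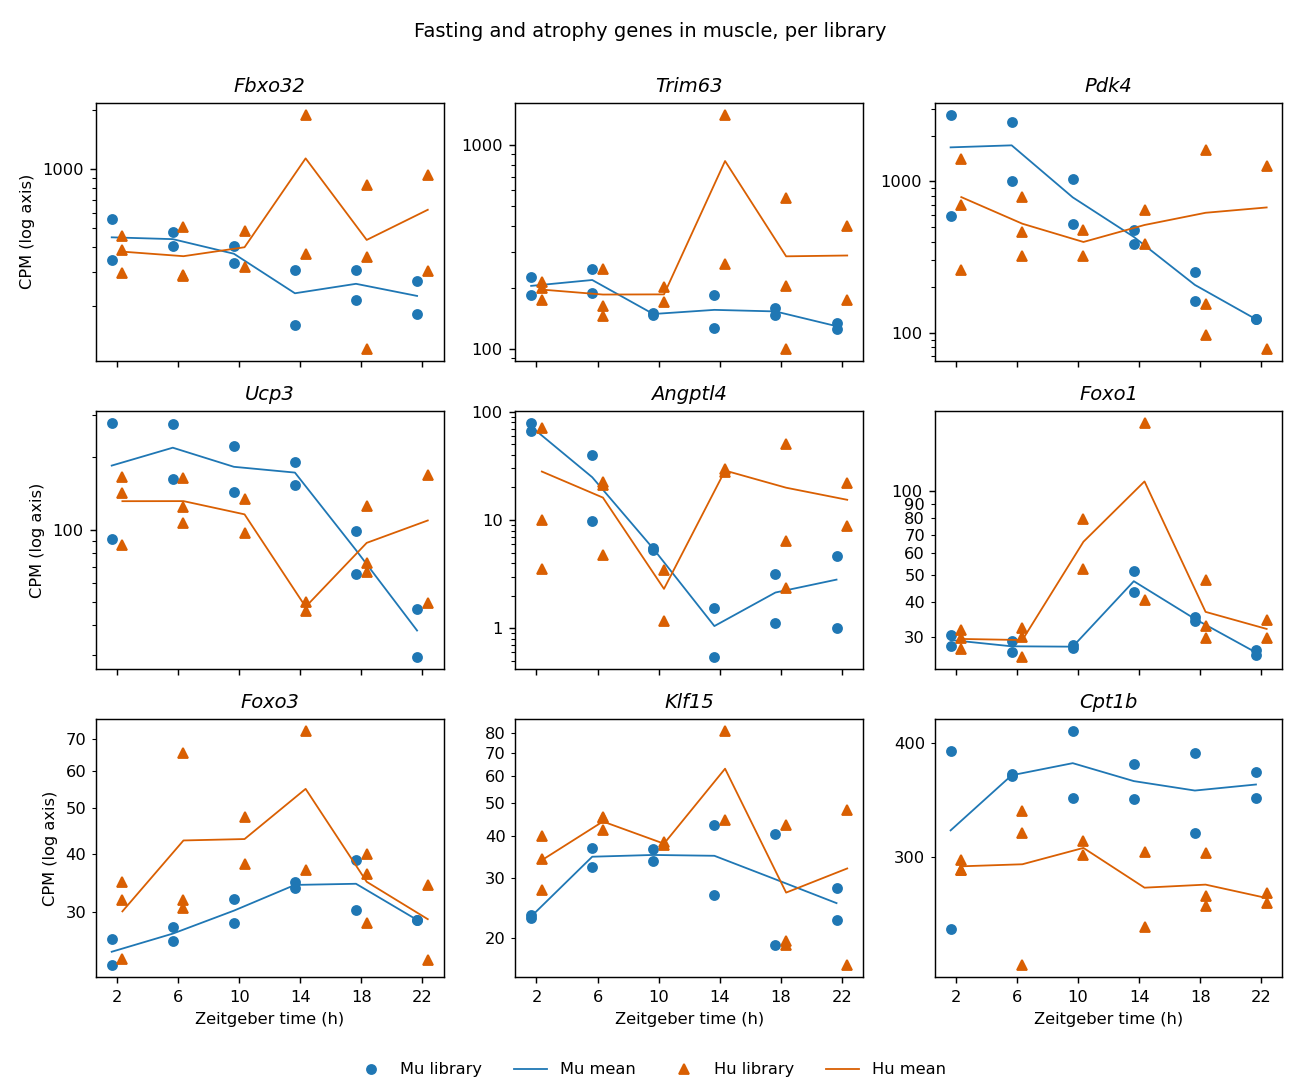
CPM of each gene in every muscle library (log axis) against zeitgeber time in hours; circles are Mu libraries, triangles Hu libraries, and lines join the means at each time. In the Mu arm Pdk4 and Angptl4 stood high at ZT 2 and 6 and low at night, and 1 Hu library at ZT 14 stood above all others for Fbxo32, Trim63 and Foxo1.

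The time-averaged level was compared between arms in a model with a 24 h cosine for each arm. Among the 9 genes, 3 passed an adjusted p of 0.05 (edgeR's quasi-likelihood test, adjusted over all genes), which compares with 26.9 percent of all 14197 genes tested. Trim63 and Foxo3 were higher in Hu muscle and Cpt1b was lower. Of all genes, 13.5 percent were higher and 13.3 percent lower. The median log2 difference of the 9 genes was 0.36, beside 0.03 over all genes tested. Without Hu replicate 2 at ZT 14 the count was 2, Foxo3 and Cpt1b, beside 24.5 percent of all genes. Without Hu replicate 1 at ZT 6 it was 4, with 3 higher and 1 lower, and the share of all genes in that fit is not given here. Fits that each left out 1 library called 3071 to 4411 of all genes. With the fat and slow fibre covariates the count among the 9 was 0, beside 4.72 percent of all genes.

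The ubiquitin ligases come first. In Mu muscle, Fbxo32 (ENSMUSG00000022358, chromosome 15, 58175879 to 58214932, minus strand, GRCm38) ranged from 159 to 555 CPM, with a median of 319. In Hu muscle it ranged from 120 to 1905 CPM, with a median of 370. Of the 15 Hu libraries, 3 lay above every Mu library, namely replicate 2 at ZT 14 (1905 CPM), replicate 1 at ZT 22 (941 CPM) and replicate 1 at ZT 18 (829 CPM). The other Hu libraries at those times held 370, 301, 356 and 120 CPM, within or below the Mu range. The arms therefore overlapped, and the level difference of 0.69 ± 0.28 (log2, SE) had an adjusted p of 0.0729 in edgeR's test. It was 0.40 without Hu replicate 2 at ZT 14 (adjusted p = 0.212), and it passed when Hu replicate 3 at ZT 18, the lowest library, was left out (adjusted p = 0.0188).

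Trim63 (ENSMUSG00000028834, chromosome 4, 134315120 to 134329629, plus strand) ran from 125 to 247 CPM in Mu muscle (median 154) and from 100 to 1410 CPM in Hu muscle (median 201). The same 3 Hu libraries were the highest, with 1410, 550 and 400 CPM at ZT 14, 18 and 22. In all, 5 of 15 Hu libraries exceeded every Mu library and 13 exceeded the Mu median. Trim63 was 1.74-fold higher in Hu, a log2 difference of 0.80 ± 0.27 with an adjusted p of 0.0309 (edgeR). Without Hu replicate 2 at ZT 14 the difference was 0.45, with an adjusted p of 0.0781. Leaving out any 1 of 5 other libraries also took the adjusted p past the threshold, to 0.0507 without Hu replicate 1 at ZT 22, 0.0509 without either Mu library at ZT 10, and 0.0552 and 0.0510 without Mu replicates 1 and 2 at ZT 22. With the fat and slow fibre covariates it was 0.48 (adjusted p = 0.553).

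Fbxo32 and Trim63 rose and fell together from library to library. Over the 27 libraries, the log2 CPM of the pair had a Pearson r of 0.919 and a Spearman rho of 0.860, both with a permutation p of 1e-05, the smallest that 100000 permutations can give, and adjusted p-values of 0.00018 and 0.00027 over 54 relations. Leaving out the 2 libraries farthest from the Trim63 median left r at 0.887. The relation was also present within Mu (r = 0.832) and within Hu (r = 0.945), and after the mean of each arm and time point was subtracted (r = 0.95). Libraries of the same arm and time thus differed in both ligases at once. Klf15 also went with Fbxo32 (r = 0.639, adjusted permutation p = 0.00387; rho = 0.469, adjusted p = 0.0635) and with Trim63 (r = 0.636, adjusted permutation p = 0.0027; rho = 0.485, adjusted p = 0.0589). They stood at r = 0.490 and r = 0.456 without Hu replicate 2 at ZT 14. Those 2 relations were weaker within Mu (r = 0.275 and 0.223) than within Hu (r = 0.707 and 0.680), a difference that was not tested.

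**Figure D2:**
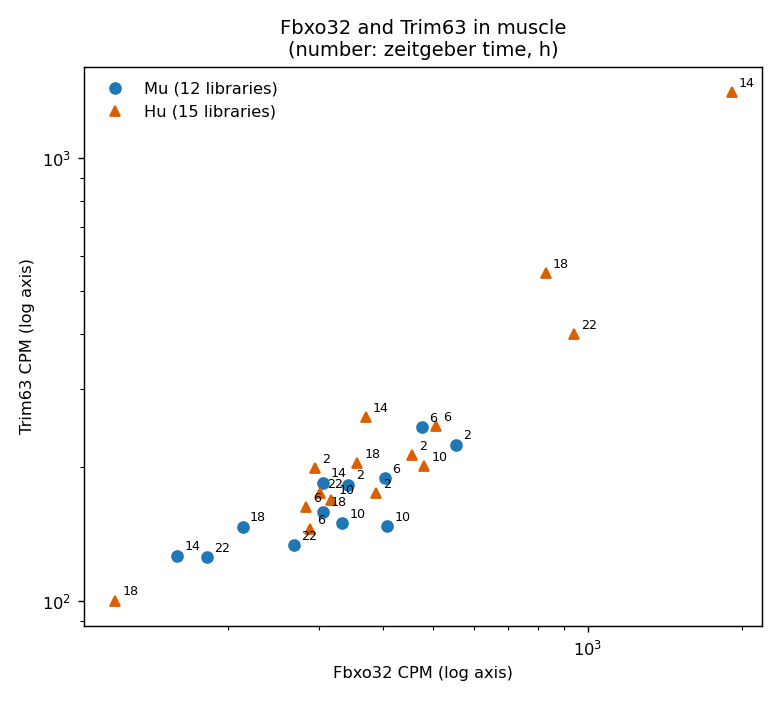
Trim63 against Fbxo32 in CPM in each muscle library (both axes log), with the zeitgeber time beside each point; circles are Mu and triangles Hu. The points lie along 1 line (r = 0.919 over 27 libraries on the log2 scale), and the 3 highest are Hu libraries at ZT 14, 18 and 22.

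The FOXO factors were next. Foxo3 (ENSMUSG00000048756, chromosome 10, 42181841 to 42276755, minus strand) ran from 23.2 to 38.7 CPM in Mu muscle (median 28.9) and from 23.8 to 73.0 CPM in Hu muscle (median 34.8). Hu means were above Mu means at all 6 time points, but barely so at ZT 18 (34.86 against 34.53 CPM) and ZT 22 (29.03 against 28.93 CPM). Of the 15 Hu libraries, 12 exceeded the Mu median. The highest were replicate 2 at ZT 14 (73.0 CPM) and replicate 1 at ZT 6 (65.5 CPM), while the other Hu libraries at those times held 36.9, 31.8 and 30.7 CPM. The level was 1.29-fold higher in Hu (log2 0.36 ± 0.12, adjusted p = 0.0247, edgeR), and the adjusted p stayed under 0.05 in all 27 fits that each left out 1 library, with 0.0481 as the highest. With the fat and slow fibre covariates the difference was 0.32 and its adjusted p 0.263, and with ZT as a factor of 6 levels in place of the cosine it was 0.36 with an adjusted p of 0.0504.

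Foxo1 (ENSMUSG00000044167, chromosome 3, 52268336 to 52353221, plus strand) ran from 25.9 to 51.7 CPM in Mu (median 28.6) and from 25.4 to 176 CPM in Hu (median 32.5). Its Hu means were also above its Mu means at all 6 time points, but barely so at ZT 2 (29.53 against 29.28 CPM). The level difference was 0.47 ± 0.18 (adjusted p = 0.0530, edgeR). Leaving out single libraries gave differences from 0.26 to 0.53, and the adjusted p was under 0.05 in 8 of the 27 fits. Foxo1 was highest at ZT 14 in Mu muscle, although its rhythm within Mu did not pass (adjusted p = 0.472). In Mu muscle it held 43.5 and 51.7 CPM at ZT 14 and between 25.9 and 35.5 CPM at every other time. In Hu muscle it held 79.3 and 52.6 CPM at ZT 10, and 40.9 and 176 CPM at ZT 14, against 25.4 to 48.1 CPM elsewhere. Both Hu libraries at ZT 10 lay above all 12 Mu libraries, and the highest mean was at ZT 14 in both arms.

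Klf15 (ENSMUSG00000030087, chromosome 6, 90462576 to 90475238, plus strand) ran from 19.2 to 43.1 CPM in Mu (median 30.3) and from 16.6 to 81.3 CPM in Hu (median 39.9). The Hu arm spanned the Mu range on both sides, with 5 libraries above and 2 below it. Its level difference of 0.35 ± 0.17 did not pass (adjusted p = 0.135, edgeR), and without Hu replicate 2 at ZT 14 it was 0.23 (adjusted p = 0.287). At ZT 18 and 22 the Hu libraries fell apart into 42.9 and 47.5 CPM in replicate 1 and 16.6 to 19.7 CPM in the others. The replicate 1 libraries at ZT 18 and ZT 22 were the ones with high Fbxo32 and Trim63.

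Among the genes of fuel use, Cpt1b (ENSMUSG00000078937, chromosome 15, 89416405 to 89425863, minus strand) separated the arms best. Mu libraries ran from 250 to 412 CPM (median 368) and Hu libraries from 228 to 337 CPM (median 291). Of the 12 Mu libraries, 10 lay above every Hu library, and only replicate 2 at ZT 2 (250 CPM), with the highest fat marker sum of the Mu arm, and replicate 2 at ZT 18 (319 CPM) lay among them. Cpt1b was lower in Hu by 1.24-fold (log2 difference -0.32 ± 0.06, adjusted p = 0.00126, edgeR), and it passed in all 27 fits that left out 1 library. With the covariates the difference was -0.18 (adjusted p = 0.228). Cpt1b fell as the fat marker sum rose over the libraries (r = -0.603, adjusted permutation p = 0.00769; rho = -0.600, adjusted p = 0.00964), within Mu with r = -0.737 but within Hu with r = -0.06.

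The count of Cpt1b cannot be cleanly told from that of its neighbour. Chkb, a choline kinase gene, ends 496 bases from the start of Cpt1b on the same strand, and the annotation holds a transcript that spans both. In muscle, Chkb counts were 1.04 to 1.11 times those of Cpt1b in each of 27 libraries, and Chkb was the gene most like Cpt1b (r = 0.995 over 27 libraries). In liver the ratio ran from 6.64 to 14.5, and in ARC from 12.7 to 26.1. Reads of the spanning transcript may have been counted for either gene, and this was not tested. Annotated genes without a row in the count table overlap 3 others of the 9, Gm15943 with Fbxo32, Gm10603 with Ucp3, and Gm20402 and Gm38034 with Foxo1. The kit keeps the strand, but whether counting used it is not given in the sources used here, so shared reads cannot be told apart.

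Pdk4 (ENSMUSG00000019577, chromosome 6, 5483351 to 5496309, minus strand) had the widest daily range of the abundant genes. In Mu muscle it held 2757 and 593 CPM at ZT 2, 2449 and 1006 at ZT 6, 1043 and 523.5 at ZT 10, 383 and 475.5 at ZT 14, 251 and 162 at ZT 18, and 123 in both libraries at ZT 22. The mean at ZT 6 was 14.1 times that at ZT 22. In Hu muscle the libraries held 260, 695 and 1403 CPM at ZT 2, 787, 322 and 465 at ZT 6, 321 and 474 at ZT 10, 384 and 645 at ZT 14, 1608, 97.0 and 154 at ZT 18, and 1266 and 78.0 at ZT 22. Libraries at the same night time thus spanned both ends of the range in Hu, and the highest mean was 1.98 times the lowest. The level did not pass between the arms (log2 -0.04 ± 0.43, adjusted p = 0.957, edgeR).

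Ucp3 (ENSMUSG00000032942, chromosome 7, 100472990 to 100486432, plus strand) had a like course in Mu. It held 279 and 91.1 CPM at ZT 2, 277 and 163 at ZT 6, 222 and 143 at ZT 10, 192 and 154 at ZT 14, 65.5 and 99.0 at ZT 18, and 29.4 and 46.6 at ZT 22. In Hu it ran from 45.7 to 169 CPM (median 106), with its lowest values, 45.7 and 49.8 CPM, at ZT 14. At ZT 14 the Mu libraries lay well above the Hu libraries, while at ZT 22 the Hu libraries (169 and 49.4 CPM) lay above the Mu ones. The level did not pass (log2 -0.40 ± 0.23, adjusted p = 0.209, edgeR), and without Mu replicate 1 at ZT 2 it was -0.17 (adjusted p = 0.573). Pdk4 and Ucp3 went together over the libraries (r = 0.772, adjusted permutation p = 0.00018; rho = 0.746, adjusted p = 0.00036), in both arms (r = 0.872 in Mu and 0.651 in Hu).

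Angptl4 (ENSMUSG00000002289, chromosome 17, 33773750 to 33781830, minus strand) had the largest fold range of the 9. In Mu muscle it held 66.7 and 79.3 CPM at ZT 2, 40.0 and 9.8 at ZT 6, 5.3 and 5.6 at ZT 10, 1.6 and 0.54 at ZT 14, 1.1 and 3.2 at ZT 18, and 1.0 and 4.6 at ZT 22. In Hu muscle it ran from 1.16 to 70.6 CPM, with values of 20 CPM or more at ZT 2, 6, 14, 18 and 22 and values under 10 CPM at ZT 2, 6, 10, 18 and 22. The level difference of 1.37 ± 0.56 did not pass (adjusted p = 0.0737, edgeR). With the fat and slow fibre covariates its sign turned, to -1.17 (adjusted p = 0.277). Angptl4 followed the fat marker sum over the 27 libraries (r = 0.813, adjusted permutation p = 0.00018; rho = 0.794, adjusted p = 0.00027), with r = 0.790 in Mu, r = 0.916 in Hu and r = 0.765 without the 2 libraries farthest from the Angptl4 median. The genes most like it were Hcar2 (r = 0.908) and Adrb3 (r = 0.880), receptors known from fat cells.

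**Figure D3:**
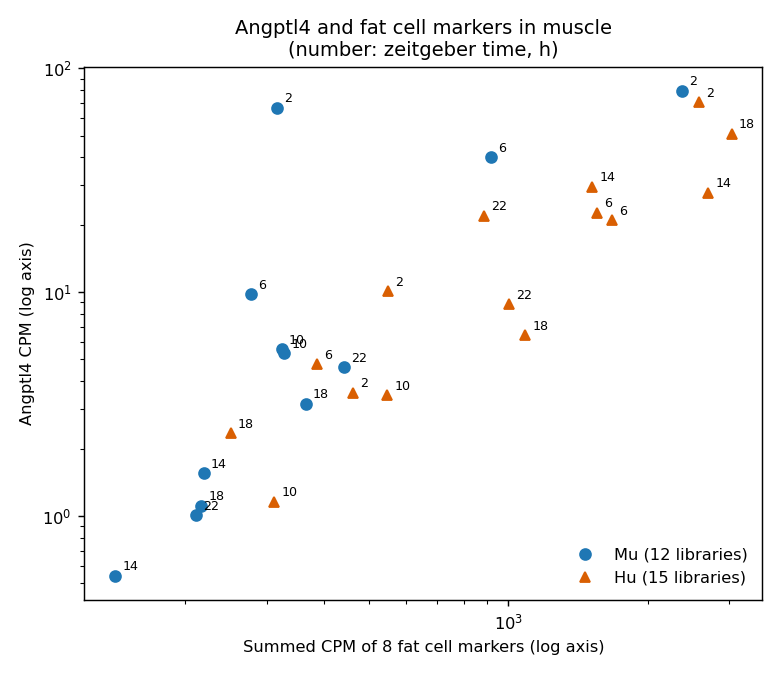
Angptl4 in CPM against the summed CPM of 8 fat cell markers in each muscle library (both axes log), with the zeitgeber time beside each point; circles are Mu and triangles Hu. Angptl4 was higher in libraries with more fat marker transcripts in both arms (r = 0.790 in Mu and 0.916 in Hu), and the Mu library at ZT 2 with a low marker sum stands above that line.

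Phase and amplitude came from the same cosine fits, with the phase as the fitted peak in ZT and the amplitude as the log2 distance from mean to peak. A jackknife over libraries gave their errors. In Mu muscle, 1 of the 9 genes passed the rhythm test, beside 5.31 percent of all genes. This was Angptl4, with a peak at ZT 3.50 ± 0.69 h and an amplitude of 2.88 ± 0.48 (adjusted p = 0.0133, edgeR; 0.0732 with ZT as a factor). Pdk4 (peak ZT 6.12 ± 1.60 h, amplitude 1.75 ± 0.34, adjusted p = 0.0663) and Ucp3 (peak ZT 8.21 ± 1.55 h, amplitude 1.01 ± 0.35, adjusted p = 0.0657) had large amplitudes and did not pass. Fbxo32 and Trim63 had fitted peaks at ZT 5.44 ± 1.5 h and 5.19 ± 1.97 h, with adjusted p-values of 0.458 and 0.777. The fitted Mu peaks of the ligases and the fuel genes Pdk4, Ucp3 and Angptl4 thus all lay in the light phase, and those of Foxo1 (ZT 14.85 ± 1.31 h, adjusted p = 0.472) and Foxo3 (ZT 15.34 ± 0.82 h, adjusted p = 0.405) in the dark phase. Of these 7 genes only Angptl4 passed, so the others' peak times describe the fits.

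In Hu muscle, 1 of the 9 genes passed, beside 7.78 percent of all genes. This was Foxo1, with a peak at ZT 13.07 ± 1.02 h and an amplitude of 0.85 ± 0.38 (adjusted p = 0.0069, edgeR), which passed in each of the 27 fits that left out 1 library (highest adjusted p = 0.0379, without Hu replicate 2 at ZT 14). Foxo3 (peak ZT 11.35 ± 1.83 h, adjusted p = 0.0560) and Trim63 (peak ZT 15.35 ± 3.53 h, adjusted p = 0.0684) did not pass. Without Hu replicate 2 at ZT 14 their adjusted p-values were 0.154 and 0.319. Pdk4, Angptl4 and Fbxo32 had Hu phases with jackknife errors of 5.06, 6.36 and 5.31 h, so that no peak time could be read for them.

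The difference between the arms in phase or amplitude was tested directly, and 0 of the 9 genes passed in edgeR's test, beside 0.0704 percent of all genes (10 genes). At an unadjusted p under 0.05 the share of all genes was 13.8 percent. Among the 9, those under it in edgeR's test were Angptl4 (unadjusted p = 0.00203), Pdk4 (0.0203), Trim63 (0.0245), Ucp3 (0.0318) and Fbxo32 (0.0414). None of them passed after adjustment. Angptl4 came nearest among the 9 (adjusted p = 0.195), with a Hu amplitude lower by 2.32 ± 0.81 (log2). It passed in DESeq2, the 1 member that did, with an adjusted p of 0.0286, and DESeq2 called 161 genes, or 1.23 percent of those it tested. The Pdk4 amplitude was 1.75 in Mu and 0.43 ± 0.39 in Hu, a difference of -1.32 ± 0.52 (adjusted p = 0.299 for the rhythm difference). For Foxo1, the Hu peak was 1.79 ± 1.66 h earlier than the Mu peak (adjusted p = 0.397 for the rhythm difference). For Fbxo32 and Trim63 the rhythm difference had adjusted p-values of 0.350 and 0.311.

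**Figure D4:**
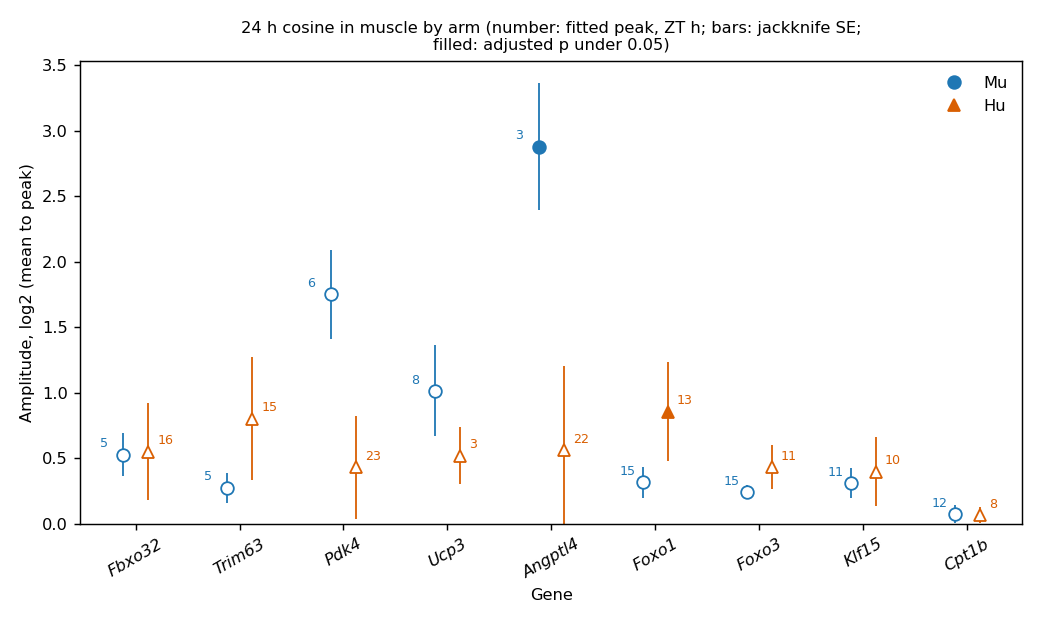
Amplitude of the fitted 24 h cosine in muscle (log2, mean to peak) for each gene, with circles for Mu and triangles for Hu, jackknife standard errors as bars and the fitted peak time in ZT hours beside each point; filled symbols passed an adjusted p of 0.05. Angptl4, Pdk4 and Ucp3 had larger fitted amplitudes in Mu and Foxo1 and Trim63 in Hu. Amplitude alone was not tested between the arms. In edgeR's test of phase and amplitude together none of these genes passed, while Angptl4 passed in DESeq2.

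With a cosine shared by the arms, Foxo1 was the 1 gene of the 9 that passed, beside 13.4 percent of all genes. Its peak was at ZT 13.48 with an amplitude of 0.61 (adjusted p = 0.00779, edgeR), a 2.33-fold span from trough to peak. It passed in all 27 fits that left out 1 library. Foxo3 peaked near the same time (ZT 12.55, amplitude 0.30) and did not pass (adjusted p = 0.0630). Klf15 had a fitted peak at ZT 10.73 and an adjusted p of 0.113.

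Other genes of these pathways were counted from lists chosen with earlier results of these data known. The counts therefore describe these data and are not independent support. In the list of 20 further FOXO and atrophy genes, 11 were higher in Hu muscle and 0 lower, beside 13.5 and 13.3 percent of all genes, with a median log2 difference of 0.36, beside 0.03 over all genes. Mt2, a metallothionein gene raised by stress and glucocorticoids, was higher by 2.48 ± 0.48 (adjusted p = 0.00082, edgeR). Eif4ebp1, a repressor of translation, was higher by 0.90 ± 0.20, Gadd45a, a stress gene active in muscle atrophy, by 1.0 ± 0.24, and Sesn1, a target of FOXO and p53, by 0.73 ± 0.17. Without Hu replicate 2 at ZT 14 the count was 12 higher and 0 lower, with a median of 0.20, and with the fat and slow fibre covariates it was 0, beside 4.72 percent of all genes. In the rhythm shared by the arms, 5 of the 20 passed (4 without Hu replicate 2 at ZT 14), beside 13.4 percent of all genes, with Nfe2l2 (peak ZT 11.8) and Sqstm1 (ZT 13.6) first.

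The glucocorticoid response list had 6 of 12 genes higher in Hu muscle and 0 lower, beside 13.5 and 13.3 percent of all genes (median 0.38). Cebpd, a transcription factor of the acute stress response, was higher by 1.53 ± 0.25 (adjusted p = 0.00018, edgeR), Ddit4, an inhibitor of mTOR signalling, by 1.13 ± 0.25, Pik3r1 by 0.65 ± 0.16 and Fkbp5, a chaperone partner of the glucocorticoid receptor, by 0.74 ± 0.22. Tsc22d3 (GILZ), a direct receptor target, had a difference of 0.03 ± 0.09. The count was 4 without Hu replicate 2 at ZT 14 and 1 with the covariates. In the shared rhythm, 10 of these 12 genes passed (9 without that library), beside 13.4 percent of all genes, among them Tsc22d3 (peak ZT 14.2, amplitude 0.78) and Per1 (peak ZT 10.8, amplitude 1.53).

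The fatty acid list had 0 of 23 genes higher in Hu and 10 lower, beside 13.5 and 13.3 percent of all genes (median -0.23). Fabp3, the fatty acid carrier of oxidative muscle, was lower in Hu, with a log2 difference of -1.42 ± 0.20 (adjusted p = 6.3e-05, edgeR). Slc25a20, the carnitine carrier of mitochondria, stood at -0.51 ± 0.09, Etfdh at -0.45 ± 0.08 and Hadha at -0.46 ± 0.09. The count was 11 without Hu replicate 2 at ZT 14 and 7 with the covariates, all lower in Hu. Cpt1b thus lay on the same side as every called gene of this list. Cpt1a, its partner of other tissues, was at -0.09 ± 0.14 and passed in the shared rhythm with a peak at ZT 5.26, as 1 of 3 genes of the 23, beside 13.4 percent of all genes, so that the list's share was near that of all genes.

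Amino acid breakdown genes were called in both directions, 2 of 11 higher and 4 lower, beside 13.5 and 13.3 percent of all genes. The aminotransferase genes Got1 (-0.65 ± 0.12), Got2 (-0.52 ± 0.12) and Gpt (-0.59 ± 0.13) were lower in Hu, as was Dld (-0.34 ± 0.06), while the proline oxidase gene Prodh was higher by 0.43 ± 0.13 and had a shared peak at ZT 13.0. With the covariates 1 was called. In the insulin and glucose uptake list, 4 of 12 were higher and 3 lower, beside 13.5 and 13.3 percent of all genes. Akt2, a kinase of insulin signalling, was higher by 0.27 ± 0.06, Igf1 by 0.66 ± 0.15, Srebf1, a factor of fat synthesis induced by insulin, by 0.70 ± 0.15 and Igf1r by 0.40 ± 0.11. No gene of this list passed in the shared rhythm (0 of 12, beside 13.4 percent of all genes), 1 was called for level with the covariates, and 5 (4 higher and 1 lower) were called without Hu replicate 2 at ZT 14. Of 18 clock genes, 15 passed in the shared rhythm, beside 13.4 percent of all genes, and Per1 was the 1 called for level, a call lost without Hu replicate 2 at ZT 14, without Mu replicate 2 at ZT 2 and with the covariates. Of 6 markers of denervated muscle, 0 were called for level in edgeR's test, beside 26.9 percent of all genes. Their summed CPM was highest in Hu replicate 2 at ZT 14 (77.1 CPM against 27 CPM in the lowest Hu library).

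For each gene, the genes outside the list with the highest correlation over the 27 libraries were sought as a description. Klhl38 was the most like Fbxo32 (r = 0.893, and 0.894 without Hu replicate 2 at ZT 14), and its own level was higher in Hu by 0.83 ± 0.23 (adjusted p = 0.0101, edgeR). Zfyve1 was the most like Trim63 (r = 0.844), Slc25a22 the most like both Pdk4 (r = 0.804) and Ucp3 (r = 0.761), Ing1 the most like Foxo3 (r = 0.921), Nmt1 the most like Foxo1 (r = 0.903) and Pim3 the most like Klf15 (r = 0.848). The r of Slc15a4, the gene next most like Trim63, went from 0.835 to 0.593 without that library. Ogdh, a subunit gene of a citric acid cycle enzyme, came next to Chkb for Cpt1b (r = 0.944).

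In liver, only mouse rows were used. In Hu livers these hold the remaining mouse cells, and Hu libraries held 7699340 to 87887100 counts in mouse rows, against 97071852 to 118261978 counts in Mu libraries. The mouse part of the Hu libraries varied widely. It was 7699340 of 111097965 counts in replicate 3 at ZT 18 and 87887100 of 104457174 counts in replicate 1 at ZT 2. Summed mouse hepatocyte markers were 7476 to 82690 CPM in Hu and 86322 to 117550 CPM in Mu, so that the make-up of the cells compared differed between the arms, and its part in the liver results was not tested. The liver table was processed apart from the other, and levels in liver and muscle were not compared by a test.

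Of the 9 genes, 7 passed the filter on low counts in liver. Trim63 (0.02 to 0.21 CPM over all liver libraries) and Ucp3 (0 to 0.10 CPM) did not. Level calls were made for 5 of the 7, beside 79.5 percent of all genes. Of these, 1 was higher in Hu, beside 42.5 percent of all genes, and 4 were lower, beside 37 percent. Fbxo32 was higher in Hu liver, with 7.23 to 20.8 CPM (median 12.7) against 2.04 to 8.82 CPM in Mu (median 5.01), and 12 of 15 Hu libraries lay above every Mu library. The difference was 1.44 ± 0.16 (adjusted p = 1.83e-08, edgeR). Klf15 was lower in Hu, with 14.7 to 79.0 CPM against 106 to 252 CPM in Mu (log2 -1.85 ± 0.17, adjusted p = 1.57e-09, edgeR). Its ranges did not overlap between the arms, and neither did those of the summed hepatocyte markers. How many of all genes separate the arms as far as Fbxo32 or Klf15 was not counted. Angptl4 (-1.05 ± 0.33, adjusted p = 0.00611), Foxo1 (-0.39 ± 0.08, adjusted p = 0.000149) and Foxo3 (-0.31 ± 0.08, adjusted p = 0.000654) were also lower in Hu liver.

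Scaling matters in liver. With library sizes over all rows, human included, and no scaling factors, the median of all genes moved from 0.07 to -0.70. On that scale Fbxo32 was still higher (0.70, adjusted p = 0.00769), and all of the other 6 were lower and called, Klf15 with -2.52 and Pdk4 with -1.11, beside 77.9 percent of all genes. The share of called genes that were higher in Hu went from 53.5 to 21.7 percent with this scaling. Of the 7 genes tested in both tissues, Fbxo32 had a positive difference in muscle and in liver, Pdk4 and Cpt1b a negative one in both (for Pdk4 in muscle, -0.04, or 0.084 with ZT as a factor), and Angptl4, Foxo1, Foxo3 and Klf15 a positive one in muscle and a negative one in liver. In muscle, Foxo3 and Cpt1b of these 7 passed. Whether muscle and liver differ was not tested.

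**Figure D5:**
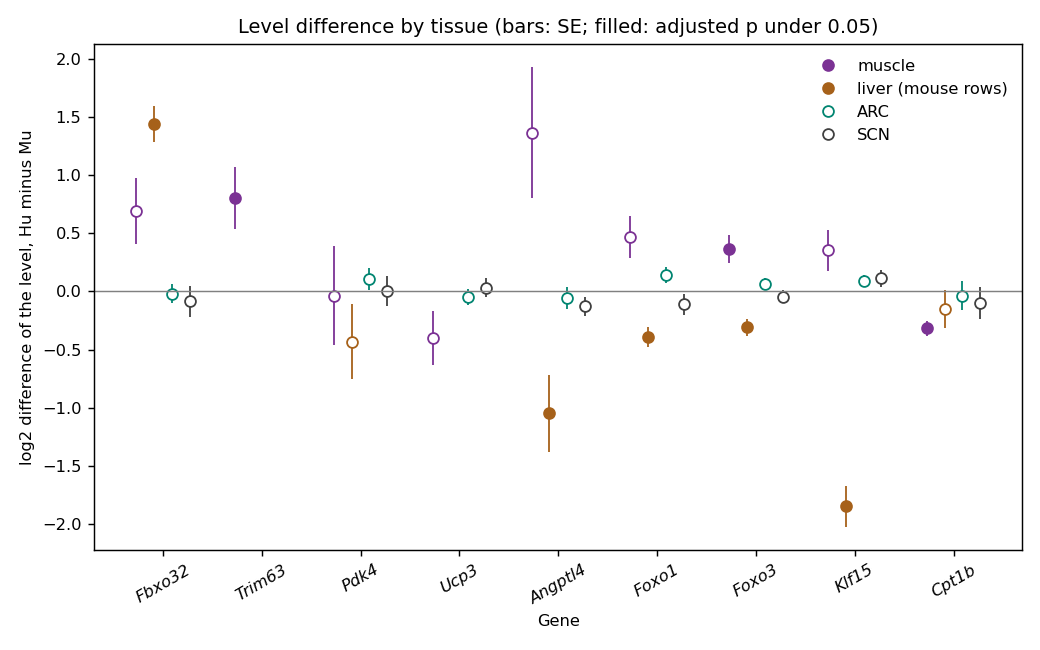
Level difference Hu minus Mu (log2) with its standard error for each gene in muscle, mouse rows of liver, ARC and SCN; filled points passed an adjusted p of 0.05. Differences in ARC and SCN lie near 0, while Foxo3 was higher in Hu muscle and Fbxo32 higher and Klf15 lower in Hu liver.

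In the liver rhythm shared by the arms, 3 of the 7 genes passed, beside 6.93 percent of all genes. Pdk4 peaked at ZT 1.12 (amplitude 0.95, adjusted p = 0.0240), Foxo1 at ZT 13.73 (0.29, adjusted p = 0.0121) and Foxo3 at ZT 12.53 (0.27, adjusted p = 0.0275), all by edgeR. Pdk4 lost its call without Hu replicate 3 at ZT 2 (adjusted p = 0.0780), and Foxo3 lost its call without Mu replicate 1 (adjusted p = 0.0533) or replicate 2 (adjusted p = 0.0623) at ZT 14. With library sizes over all rows and no scaling factors, Foxo1 (adjusted p = 0.920) and Foxo3 (0.703) lost their calls, Pdk4 kept its call (0.0290) and Fbxo32 gained one (0.0367), beside 3.64 percent of all genes. The calls of Foxo1 and Foxo3 in liver thus depend on the scaling.

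In Mu livers alone, Fbxo32 (peak ZT 4.81, amplitude 0.82), Foxo1 (ZT 13.67, 0.38) and Foxo3 (ZT 13.41, 0.44) passed, beside 17.3 percent of all genes. Without scaling factors their adjusted p-values were 0.261, 0.828 and 0.705. In Hu livers 0 of the 7 passed in edgeR's test, beside 0.167 percent of all genes, and without scaling factors Fbxo32, Pdk4 and Angptl4 had adjusted p-values of 0.0319, 0.0217 and 0.0267. The rhythm difference between the arms passed for 0 of the 7, beside 1.28 percent of all genes, and the smallest adjusted p was 0.152, for Foxo3.

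In the brain, the 9 genes stood at levels from near 0 to about 60 CPM. Trim63 did not pass the filter, with at most 0.14 CPM in ARC and 0.59 CPM in SCN. In CPM, Foxo3 was higher in both brain regions (Mu medians 56.0 in ARC and 54.5 in SCN) than in muscle (28.9), without overlap between the ranges of the Mu libraries. Foxo1 was close in all of them, with Mu medians of 28.5 in ARC, 36.1 in SCN and 28.6 in muscle. Fbxo32 (16.8 CPM in ARC and 16.9 CPM in SCN), Pdk4 (9.61 and 9.87 CPM) and Cpt1b (1.64 and 2.55 CPM) were far below muscle. No gene of the 8 tested was called for level in ARC or SCN by edgeR, beside 0.00663 percent of all genes in ARC and 0 percent in SCN. At an unadjusted p under 0.05 the shares of all genes were 4.24 and 2.17 percent. Of the genes tested here, Klf15 (unadjusted p = 0.0428, edgeR) and Foxo1 (0.0432) were under it in ARC, and none in SCN.

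Klf15 had a daily rhythm in ARC. In Mu it held 18.5 and 19.4 CPM at ZT 2, 33.4 and 29.0 at ZT 14 and 23.3 and 24.6 at ZT 22. In Hu it held 19.6 and 23.4 CPM at ZT 2, and 31.0 and 33.3 at ZT 10, its highest time. At ZT 6 and ZT 22, with 1 Hu library each, it held 24.8 and 23.1 CPM. It passed within Mu (peak ZT 15.30 ± 0.46 h, adjusted p = 0.000517) and within Hu (peak ZT 12.19 ± 0.57 h, adjusted p = 0.0164) in edgeR's tests. Those tests called 1.41 and 0.0995 percent of all genes. With the replicate number as a block, a fit that had no Hu library at ZT 22, the call within Hu was lost. The phase difference Hu minus Mu was -3.11 ± 0.75 h, part of a rhythm difference with an unadjusted p of 0.00230 that did not pass over all genes, where 0 were called in edgeR and 1.78 percent had an unadjusted p under 0.05. In SCN the fitted Klf15 peaks were at ZT 15.97 ± 0.97 h in Mu and ZT 12.53 ± 1.75 h in Hu (adjusted p = 0.0850 for the shared rhythm). In muscle they were at ZT 11.29 ± 2.19 h and ZT 10.38 ± 2.71 h.

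Angptl4 also passed in the shared rhythm of ARC (peak ZT 22.8, amplitude 0.38, adjusted p = 0.00566, edgeR), where 2 of 8 genes passed beside 4.53 percent of all genes, and of SCN (peak ZT 21.9, amplitude 0.35, adjusted p = 0.0102), where it was the 1 of 8 beside 1.52 percent. Its levels in the brain were low, 3.27 to 9.86 CPM. The 8 fat markers together reached at most 2.41 CPM in any brain library, and Lep was at 0 in all of them.

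Finally, the level difference between the arms in muscle was set against the mean of those in ARC and SCN in 1 joint fit. That fit took 1 spread per gene from muscle and brain libraries together and treated all libraries as independent. It held no fat or slow fibre covariates. For Foxo3 its error was 0.108, beside 0.117 in the fit of muscle alone, so the spread within muscle may be understated. Of the 9 genes, 1 passed, beside 21.1 percent of all 16040 genes. Trim63 was among these 9 through its muscle counts. It had not passed the filter in either brain region, with 0 to 17 counts per brain library, so its value in the joint fit is not read. Foxo3 differed more in muscle than in the brain regions, by 0.32 ± 0.11 (adjusted p = 0.0267, edgeR). Without Hu replicate 2 of ZT 14 in muscle this was 0.24 with an adjusted p of 0.0662, and without Hu replicate 1 of ZT 6 it was 0.25 with an adjusted p of 0.0513. For Fbxo32 and Foxo1, leaving out Hu replicate 2 of ZT 14 in muscle gave 0.40 (adjusted p = 0.209) and 0.21 (adjusted p = 0.232). With all libraries, Fbxo32 (0.68 ± 0.28, adjusted p = 0.0704), Foxo1 (0.41 ± 0.17, adjusted p = 0.0789) and Cpt1b (-0.27 ± 0.12, adjusted p = 0.0954) did not pass.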

How the data were processed

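Bulk RNA was sequenced from muscle, liver, ARC and SCN (RNeasy extraction and NEBNext Ultra II Directional libraries, per the labels' protocols). The authors deposited raw counts per gene in 2 tables, 1 for liver and 1 for the other tissues. The submitters' processing notes name STAR and the builds GRCm38, mm10, hg38, GRCh38 and hg19. The counting tool and the annotation are not given in the sources used here. In all, 2 columns, Hu at ZT 22 in ARC and in SCN, carry replicate number 1, while the labelled sample of that group carries number 2. They were used as members of their group, with no number.

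Mouse rows were tested tissue by tissue with edgeR 4.0.16 in R 4.3.3, after filterByExpr by arm and TMM scaling, in a model with arm and a cosine and sine of 24 h per arm. The quasi-likelihood test was used, p-values were adjusted over all genes by Benjamini-Hochberg, and a call means an adjusted p under 0.05. Level errors are standard errors, and those of phase and amplitude are jackknife errors over libraries. Correlations used log2 CPM with a prior count of 2. The fits were tested on simulated data. The alternatives were DESeq2 1.42.0, its scaling in edgeR, no filter, a replicate block, each library left out, ZT as a factor, least squares on log2 CPM, fat and slow fibre covariates and, for liver, other library sizes. The fits without scaling factors, the counts of the lists without single libraries or with covariates, and the phases under other settings were chosen after seeing the data.

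The genes named are the 9 members, for each the genes outside the list with the highest correlation in muscle, up to 2, and from each pathway list at most 4 with the smallest level p and 2 with the smallest p of the shared rhythm. Denervation, fibre and cell markers were also counted from lists. Members and lists were chosen with earlier results of these data known. Gene positions come from GENCODE M21 (GRCm38). Depth was 23719776 to 47130028 counts per ARC library and 25472594 to 34947358 counts per SCN library.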

Additional observations from a re-analysis of the deposited data

Results flagged for a closer look

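Foxo3 differed between tissues in its response to the arm in the joint fit, which held no fat or slow fibre covariates. Within muscle, its level call was lost with those covariates and with ZT as a factor. Its level difference Hu minus Mu was 0.32 log2 units larger in muscle than the mean of ARC and SCN (± 0.11 SE, adjusted p = 0.0267, edgeR's quasi-likelihood test of the interaction over all genes). It was singled out because the difference between tissues itself passed a test. That test took 1 spread per gene from muscle and brain libraries together and treated all libraries as independent, so the spread within muscle may be understated. Without Hu replicate 2 at ZT 14 in muscle the adjusted p was 0.0662, and without Hu replicate 1 at ZT 6 it was 0.0513.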

How the results depend on the processing

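Scaling by size factors and dropping the filter on low counts ended or added no call among the 9 genes. Some counts of members in this section stand without the count of all genes called in the same setting. Such a count is not read as a result about the 9 genes. With the fat and slow fibre covariates, 670 genes and 0 members were called for level in muscle (3817 and 3 before), 2 members for rhythm in Mu, 2 for the shared rhythm and 1 gene for a different rhythm, and the Angptl4 level difference turned to -1.17. With ZT as a factor, 165 genes and 0 members were called for rhythm in Mu, 440 genes in Hu, 1 for a different rhythm and 375 for the shared rhythm, and the Pdk4 level difference turned to 0.084. DESeq2 called 5 members for level in muscle, adding Foxo1 and Angptl4. In rhythm it called 1491 genes and 3 members in Mu, 1703 genes and 2 members in Hu, 161 genes and 1 member for a difference, and 2 members for the shared rhythm. Its other counts were 2126 genes for the liver rhythm, 14 for level and 1118 for rhythm in ARC, 1 for level and 806 for rhythm in SCN, and 2 members for muscle against brain. Without scaling factors 536 genes were called for the shared liver rhythm. The cause of these changes was not tested.

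The main fits did not pair libraries by replicate number, and these values do not settle whether the number pairs them. Same-numbered libraries of both arms had a mean correlation of deviations of 0.0250 in muscle, with 2 of 12 pairs over 0.1, 0.115 in liver (7 of 12), 0.130 in ARC (6 of 8) and 0.120 in SCN (4 of 8). Where both arms had 2 libraries at a time, numbers 1 and 2 gave the same value, so ARC and SCN pairs repeat each value. The range was -0.145 to 0.462 in muscle, 0.0129 to 0.312 in liver, -0.159 to 0.350 in ARC and -0.275 to 0.397 in SCN. The replicate block called 5 members for level in muscle, adding Fbxo32 (0.85, adjusted p = 0.0337) and Foxo1 (0.51, adjusted p = 0.050), and 3 for muscle against brain. It called 148 genes for rhythm in SCN, ended the call of the Klf15 ARC rhythm in Hu (adjusted p = 0.0691) and added that of Cpt1b in Mu liver (adjusted p = 0.0487). It turned Fbxo32 in ARC to 0.0088 and Pdk4 in SCN to -0.0021, both uncalled.

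Leaving out 1 library in turn gave 3071 to 4411 genes and 2 to 5 members for level in muscle, 388 to 1110 genes and 1 to 2 members for rhythm in Mu, 602 to 1138 genes and 1 to 2 members in Hu, 0 to 19 genes and 0 members for a different rhythm, and 1414 to 2068 genes and 1 to 2 members for the shared rhythm. It gave 11692 to 11922 genes for level and 491 to 1616 for rhythm in liver, 1 to 2 and 429 to 814 in ARC, 0 to 1 and 109 to 445 in SCN, and 2929 to 4168 genes and 0 to 3 members for muscle against brain. Uncalled level differences that changed sign were Pdk4 in muscle (-0.30 to 0.31) and against brain (-0.46 to 0.12), Fbxo32 in ARC (-0.060 to 0.024) and SCN (-0.16 to 0.011), Cpt1b in ARC (-0.17 to 0.017) and SCN (-0.17 to 0.024), Pdk4 in SCN (-0.061 to 0.095) and Ucp3 in SCN (-0.015 to 0.057). Where 1 library remained at a time point, the cosine fit took its spread from the other times. Depth limits the low genes: Trim63 and Ucp3 in liver and Trim63 in brain were too low to test within those tissues.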
